A study of Mus musculus with 12 samples.

Results

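The genes described are the hepcidin pair Hamp and Hamp2 and 8 genes of iron handling: Tfrc, Tfr2, Slc40a1, Fth1, Ftl1, Trf, Bmp6 and Steap4. They were chosen by gene name, on their FPKM values in these same libraries, so their levels are given as a description with no test. FPKM is the number of fragments per kilobase of transcript, scaled by a library size that the authors set. All 10 were among the 54532 genes of the table, had a value above 0 in all 12 libraries and were among the 9743 genes whose mean over the libraries reached 1 FPKM.

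The libraries were made from primary hepatocytes, liver parenchymal cells taken into culture, of 6-week-old mice. HKO cells came from mice with G3bp1 knocked out in hepatocytes (G3bp1-HKO in the labels) and Flox cells from G3bp1-Flox mice, and cells of either genotype received PA or BSA, which the labels do not spell out. The 4 groups of 3 libraries are called HKO_PA, HKO_BSA, Flox_PA and Flox_BSA. The Cre driver, the dose and duration of PA, and whether the libraries of a group came from different mice could not be learned from the labels, so any p-value measures only the spread between these libraries. The study asks how G3BP1, which binds RNA and nucleates stress granules, bears on fatty liver inflammation (NASH).

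Hepcidin is a peptide hormone made by hepatocytes that binds ferroportin, the iron exporter encoded by Slc40a1, and causes its degradation, which lowers the release of iron into plasma. Its gene Hamp is switched on by BMP6 through SMAD proteins when iron is plentiful, and by interleukin 6 through STAT3 in inflammation. Mice carry a second gene, Hamp2, beside Hamp on the same chromosome, and its product is not known to lower plasma iron as that of Hamp does. Inside cells, iron regulatory proteins bind stem-loops, called iron-responsive elements, in the RNAs of ferritin, ferroportin and the transferrin receptor.

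Hamp (ENSMUSG00000050440) lies at chr7:30942368-30944032 and Hamp2 (ENSMUSG00000056978) at chr7:30922372-30924681, both on the minus strand. Their promoters are shown because the levels of the 2 genes differed in opposite directions between HKO and Flox. The sequences are RefSeq's for GRCm38.p6, read 5′ to 3′ on the minus strand, from chr7:30944033-30944279 for Hamp and chr7:30924182-30924431 for Hamp2. That of Hamp lies outside the gene span given above. That of Hamp2 lies before the RefSeq start but inside its gene span, which reaches further upstream. Capitals mark the hexamer GGCGCC of the BMP and SMAD type, with its counterpart in Hamp2, and the STAT-type match TTCNNNGAA.
Hamp: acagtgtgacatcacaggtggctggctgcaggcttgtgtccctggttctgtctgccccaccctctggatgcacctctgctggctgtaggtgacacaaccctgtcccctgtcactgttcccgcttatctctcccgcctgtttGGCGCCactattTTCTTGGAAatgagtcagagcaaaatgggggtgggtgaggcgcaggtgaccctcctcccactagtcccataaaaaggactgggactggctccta
Hamp2: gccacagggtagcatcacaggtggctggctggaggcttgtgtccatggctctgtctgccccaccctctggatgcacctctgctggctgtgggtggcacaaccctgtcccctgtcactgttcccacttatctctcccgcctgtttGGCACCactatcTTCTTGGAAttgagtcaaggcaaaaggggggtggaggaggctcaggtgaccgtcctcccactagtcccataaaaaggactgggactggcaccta

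The 2 promoter windows of 300 bases (250 before the start and 50 after it) were identical at 276 of 297 aligned bases, 92.9%. Counted from 1 at the 5′ end of the hexamer, with the Hamp base first, the hexamers differ by G4A. The hexamer begins 109 bases before the start in Hamp, and its counterpart 106 bases before it in Hamp2. The STAT-type match TTCTTGGAA is present in both, 97 and 94 bases before the start. GGCGCC is in 11.9% of all 32851 RefSeq windows of this length on either strand, and TTCNNNGAA in 8.30%. Of the 10 genes 8 had a window in the table, 12 windows in all. GGCGCC was also found in a window of Tfrc and TTCNNNGAA in one of Steap4. The E-box CACGTG, in 7.15% of all windows, was found in a window of Bmp6. The cyclic AMP types TGACGTCA (1.79% of all windows) and TGACGTGG (0.676%) were found in none of the 12. A match is a run of letters, not a measured binding site.

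The transcripts of Hamp and Hamp2 are close copies too, identical at 388 of 410 aligned bases (94.6%). Of the 361 windows of 50 bases in the Hamp transcript 16.6% also occur letter for letter in Hamp2, as do 3.87% of the 336 windows of 75 bases and none of the 311 windows of 100 bases. The labels do not say how the authors' counting divided reads that match both, so the split between the 2 genes is less certain than their sum.

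The iron-responsive elements are shown because they set apart the RNAs whose translation or stability iron is known to control. They were found in GENCODE M21 transcripts as a stem of 5 paired bases under the loop CAGTGN, which is in capitals. Fth1 has 1 at chr19:9982733-9982759 (plus strand), Ftl1 has 1 at chr7:45459780-45459806 (minus strand) and Slc40a1 has 1 at chr1:45925466-45925492 (minus strand), each in the 5′ UTR. Tfrc has 4, all in its 3′ UTR, of which the first lies at chr16:32631220-32631246 (plus strand).
Fth1: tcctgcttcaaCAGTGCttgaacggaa
Ftl1: tcttgcttcaaCAGTGTttgaacggaa
Slc40a1: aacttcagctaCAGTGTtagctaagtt
Tfrc: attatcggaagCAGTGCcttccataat
FPKM measures RNA, so it carries nothing on the translation of these messages.

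Reads in genes came to 15.02 to 18.42 M (mega) per library. The library size implied by the FPKM was above them in every Flox library, as with 18.6 M against 16.8 M in Flox_BSA 2. It was below them in every HKO library but HKO_PA 2, and lowest in HKO_PA 1 (13.4 M against 15.8 M). Relative to a scaling by reads in genes, FPKM is thus raised in HKO against Flox. G3bp1, the gene deleted, had 7.03 to 8.09 FPKM in HKO_PA and 7.77 to 8.50 in HKO_BSA, against 38.97 to 41.64 in Flox_PA and 37.74 to 45.72 in Flox_BSA, which is 18.8% of the Flox level in PA and 20.04% in BSA. Markers of other liver cells moved with genotype. The summed FPKM of 12 Kupffer cell and macrophage markers was 64.5 to 77.8 in HKO_PA and 46.9 to 75.9 in HKO_BSA. It was 1088 to 1219 in Flox_PA and 1261 to 1305 in Flox_BSA. All 12 fell in HKO in both PA and BSA, but Clec4f, Vsig4 and Timd4 averaged below 1 FPKM in both HKO groups. Those markers were among the genes tested only through their Flox values, so their falls are a description. The sum of 10 sinusoidal endothelial markers was 14.5 to 20.4 in HKO_PA and 14.8 to 15.5 in HKO_BSA, against 24.6 to 28.0 in Flox_PA and 29.1 to 31.8 in Flox_BSA. Of the 6 tested endothelial markers 2 fell with PA and 5 with BSA, and with PA 5 of the 10 had a higher mean in HKO. For 6 neutrophil markers it was at most 0.572 in HKO and at least 13.3 in Flox. For 10 hepatocyte markers it was 11785 to 21155 in HKO_PA and 10909 to 20916 in HKO_BSA, against 7808 to 8585 in Flox_PA and 8251 to 9020 in Flox_BSA. Of these 10 hepatocyte markers 5 rose in HKO with PA and 4 with BSA, none fell, and 2 had a lower mean in HKO with either treatment. Alb alone ran from 4091 to 15614 FPKM in HKO_BSA. In such bulk libraries fewer cells of a type and less RNA per cell cannot be told apart. None of 8 stellate cell and fibroblast markers was tested, and their sum was at most 0.845 FPKM in any library. In HKO 1 of the 8 had a higher mean than in Flox with either treatment and 7 a lower one. Among them Lrat was listed at 0 in HKO and averaged 0.0102 FPKM in Flox_PA and 0.0066 FPKM in Flox_BSA. The HKO libraries numbered 1 stood apart from their groups in several genes below, and values without them are given beside the results they move most.

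Hamp was lower in HKO than in Flox under either treatment and higher with PA than with BSA in either genotype. It had 119, 65.0 and 66.2 FPKM in HKO_PA and 9.12, 4.49 and 2.26 FPKM in HKO_BSA, against 218, 298 and 311 FPKM in Flox_PA and 27.9, 46.0 and 39.9 FPKM in Flox_BSA. No 2 groups overlapped. The order of the levels was Flox_PA highest, then HKO_PA, Flox_BSA and HKO_BSA.

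With PA, Hamp averaged 83.6 ± 31.1 FPKM in HKO, against 5.29 ± 3.50 FPKM with BSA (SD, n = 3 each), a 15.8-fold difference, which was 24.8-fold without HKO_BSA replicate 1 and 19.5-fold without both HKO libraries numbered 1. The values in HKO_BSA rest on 58, 29 and 16 reads per library. In Flox it averaged 276 ± 50.3 FPKM with PA and 38.0 ± 9.23 FPKM with BSA, a 7.27-fold difference. On the log2(FPKM + 1) scale, which understates differences of low genes, the PA difference was 3.84 in HKO and 2.84 in Flox (SE 0.35 each). The PA difference in HKO was 3.98 without both HKO libraries numbered 1. The PA difference in HKO minus that in Flox was 1.002 (SE 0.49), with a range of 0.60 to 1.42 when 1 library was left out and the lowest value without HKO_BSA replicate 3. Between genotypes, the HKO level was 30.3% of the Flox level with PA and 13.9% of it with BSA, with log2 differences of -1.75 and -2.75. Without the HKO library numbered 1 these were -2.04 with PA and -3.17 with BSA, where the HKO level was then 8.89% of the Flox level. PA-treated HKO cells held more Hamp than BSA-treated Flox cells in every library.

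Hamp2 followed genotype in the opposite direction. It had 93.6, 57.2 and 52.5 FPKM in HKO_PA and 57.1, 36.7 and 43.6 FPKM in HKO_BSA, against 7.99, 8.42 and 4.58 FPKM in Flox_PA and 7.08, 5.89 and 7.09 FPKM in Flox_BSA. Every HKO library lay above every Flox library, while the PA and BSA libraries of either genotype overlapped. The mean was 67.7 ± 22.5 FPKM in HKO_PA against 6.99 ± 2.10 FPKM in Flox_PA, a 9.68-fold difference and 3.09 on the log2 scale (SE 0.24). It was 45.8 ± 10.4 FPKM in HKO_BSA against 6.68 ± 0.690 FPKM in Flox_BSA, a 6.85-fold difference and 2.59 on the log2 scale. The PA difference on that scale was 0.53 in HKO and 0.02 in Flox, and the value in HKO was 0.28 without HKO_PA replicate 1 and 0.44 without both HKO libraries numbered 1. Without the HKO library numbered 1 the genotype differences were 2.84 with PA and 2.42 with BSA. The Flox values rest on 47 to 85 reads per library.

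**Figure D1:**
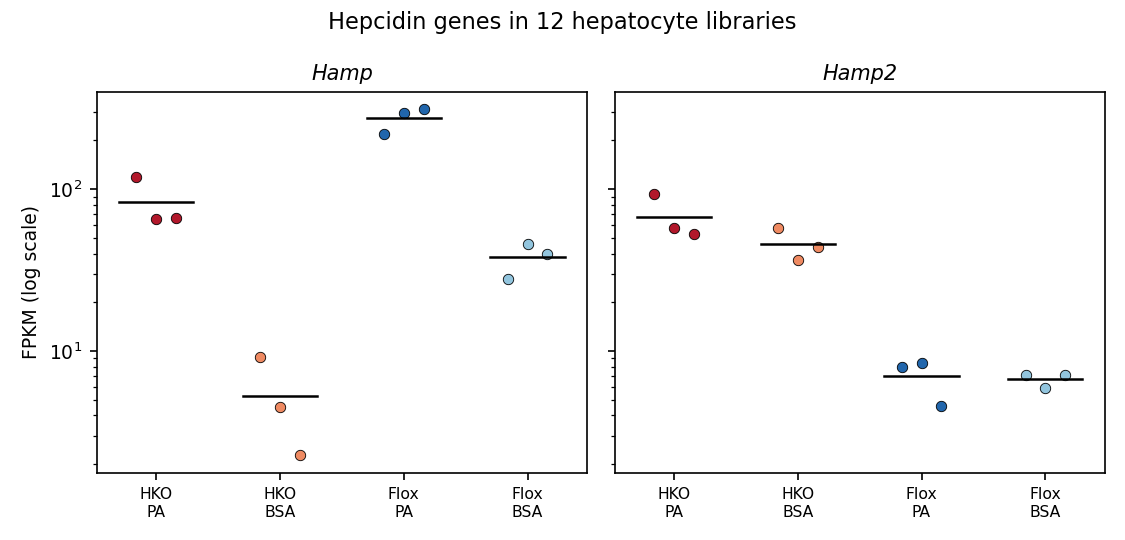
FPKM of Hamp (left) and Hamp2 (right) on a log axis in the 12 libraries, with points for libraries and lines for the means of 3. Hamp separates into 4 levels, from 2.26 to 9.12 FPKM in HKO_BSA up to 218 to 311 FPKM in Flox_PA, whereas Hamp2 separates by genotype only.

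The share of Hamp2 in the summed FPKM of the pair ran through nearly the whole scale. It was 43.9%, 46.8% and 44.2% in HKO_PA and 86.2%, 89.1% and 95.1% in HKO_BSA, against 3.53%, 2.75% and 1.45% in Flox_PA and 20.2%, 11.3% and 15.1% in Flox_BSA. No 2 groups overlapped. Within a genotype the PA libraries had the lower share, and within a treatment the HKO libraries had the higher one. The share depends on the lengths behind FPKM, 583 bases for Hamp2 and 410 for Hamp. By reads, Hamp2 exceeded Hamp in every HKO_PA library (733 against 658, 504 against 403 and 462 against 410). The log2 ratio of Hamp2 to Hamp was higher in HKO than in Flox by 5.04 with PA and by 5.80 with BSA. The same log2 ratio was lower with PA than with BSA, with differences of -3.61 in HKO and -2.85 in Flox.

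The sum of the pair depends less on how reads were divided between the copies. It averaged 151 ± 53.5 FPKM in HKO_PA and 51.1 ± 13.3 FPKM in HKO_BSA, against 283 ± 49.2 FPKM in Flox_PA and 44.6 ± 8.72 FPKM in Flox_BSA. With BSA the summed level in HKO was 1.14 times that in Flox and the groups overlapped, and with PA it was 0.535 times that in Flox without overlap. The sum was 2.96 times as high with PA as with BSA in HKO and 6.34 times in Flox.

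**Figure D2:**
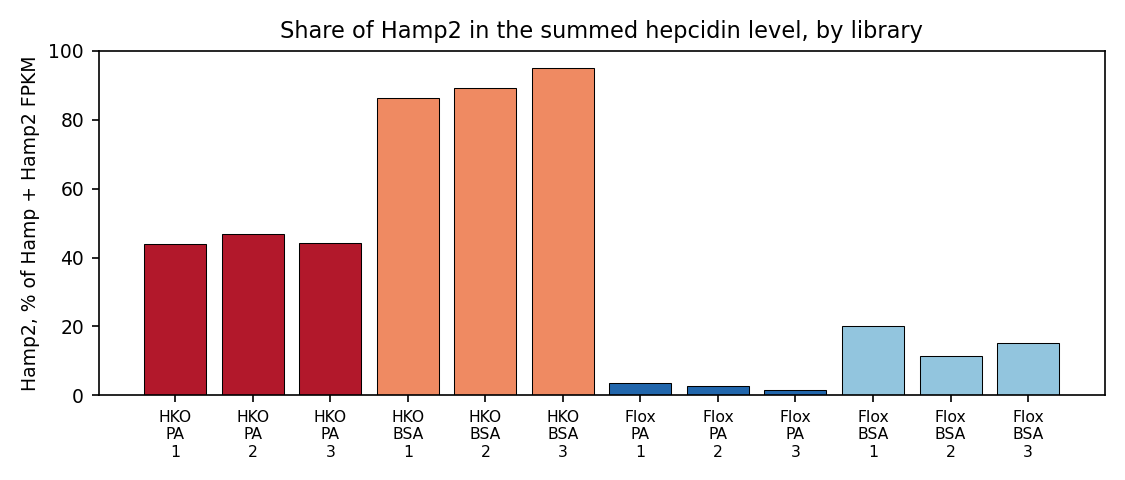
Hamp2 as a percentage of Hamp plus Hamp2 FPKM, with 1 bar per library. The 3 HKO_BSA bars stand at 86.2% to 95.1% and the 3 Flox_PA bars at 1.45% to 3.53%, with HKO_PA at 43.9% to 46.8% and Flox_BSA at 11.3% to 20.2%.

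Kupffer and endothelial marker sums differed between HKO and Flox in the same libraries as Hamp and Hamp2, and their part in the genotype differences was not tested. With PA against BSA 1 Kupffer marker rose and none fell in HKO, and none rose and 2 fell in Flox, out of 12. The endothelial sums of HKO_PA and HKO_BSA overlapped and those of Flox_PA lay below those of Flox_BSA, and none of the 6 tested endothelial markers passed for PA against BSA in either genotype.

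Of the receptors, Tfr2, the hepatocyte transferrin receptor that takes part in iron sensing and signals towards Hamp, differed in opposite directions. It (ENSMUSG00000029716) lies at chr5:137569840-137587481 in the files, whose build is GRCm38 (mm10) per the submitters' processing notes. It had 30.6, 29.4 and 39.9 FPKM in HKO_PA and 66.9, 44.1 and 46.8 FPKM in HKO_BSA, against 48.4, 56.9 and 54.1 FPKM in Flox_PA and 39.1, 40.9 and 41.5 FPKM in Flox_BSA. With PA it was lower in HKO and higher in Flox, and in neither genotype did PA and BSA overlap. The log2 difference of PA against BSA was -0.63 in HKO and 0.38 in Flox (SE 0.17 each), and that of HKO against Flox was -0.67 in PA and 0.35 in BSA. Without HKO_BSA replicate 1, the highest library, the values that include HKO_BSA were -0.45 for PA in HKO and 0.16 for HKO in BSA.

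Tfrc (ENSMUSG00000022797, chr16:32608920-32632794), the transferrin receptor that brings iron into most cells, was at a low level, 1.66 to 4.86 FPKM over the 12 libraries. Its group means were 3.66 ± 1.74 FPKM in HKO_PA and 3.41 ± 0.925 FPKM in HKO_BSA, against 3.64 ± 0.709 FPKM in Flox_PA and 3.58 ± 1.202 FPKM in Flox_BSA. All groups overlapped and none of the 4 differences exceeded its spread.

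Slc40a1 (ENSMUSG00000025993, chr1:45908068-45926523), which encodes ferroportin, the protein that hepcidin acts on, had 4.57, 3.90 and 3.48 FPKM in HKO_PA and 4.41, 5.96 and 5.99 FPKM in HKO_BSA, against 4.53, 3.51 and 4.33 FPKM in Flox_PA and 5.51, 5.74 and 4.70 FPKM in Flox_BSA. The PA libraries lay below the BSA libraries in Flox, and in HKO the groups overlapped through HKO_BSA replicate 1. The log2 difference of PA against BSA was -0.37 in HKO and -0.31 in Flox (SE 0.15 each), and -0.57 in HKO without both libraries numbered 1. Between genotypes the differences were -0.04 in PA and 0.02 in BSA, within the spread, with a sign that depended on the scaling. Macrophages are rich in ferroportin, and the part of the lower Kupffer marker sums of HKO in the Slc40a1 level was not tested.

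The ferritin genes gave the highest levels. Fth1 (ENSMUSG00000024661, chr19:9982703-9985092), the heavy subunit that oxidises iron for storage, ranked 2 among all genes by mean FPKM. It had 27109 to 34973 FPKM in HKO_PA and 21139 to 25996.5 FPKM in HKO_BSA, against 28522 to 29111 FPKM in Flox_PA and 23135 to 24922.5 FPKM in Flox_BSA. The PA libraries lay above the BSA libraries in both genotypes, with log2 differences of 0.32 in HKO and 0.28 in Flox (SE 0.17 each). The difference in Flox was 0.22 after scaling by the median log ratio and 0 after quantile normalization, which gives the same value to the same rank in every library. HKO and Flox overlapped in both treatments (log2 differences of 0.05 in PA and 0.01 in BSA), and the sign turned with limma-voom on reads, to -0.11 and -0.17.

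Ftl1 (ENSMUSG00000050708, chr7:45457944-45459884), the light subunit, ranked 12 and averaged 5176 ± 1121 FPKM in HKO_PA and 4239 ± 1330 FPKM in HKO_BSA, against 4721 ± 441 FPKM in Flox_PA and 4003 ± 368 FPKM in Flox_BSA. All 4 comparisons overlapped, and both HKO libraries numbered 1 were the highest of their groups, at 6467 and 5657 FPKM. The log2 difference of PA against BSA in HKO was 0.31, and ran from 0.09 without HKO_BSA replicate 2 to 0.55 without HKO_BSA replicate 1. Its differences between genotypes changed sign with quantile normalization, to -0.79 in PA and -0.50 in BSA. Related genes and pseudogenes may share reads with the ferritin genes: Ftl1-ps1 averaged 89.6 FPKM over the 12 libraries, Ftl2-ps 2.91 FPKM and Fth-ps2 0.036 FPKM.

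Trf (ENSMUSG00000032554, chr9:103204001-103230444) encodes transferrin, the iron carrier of plasma, which hepatocytes secrete. It had 259, 125 and 136 FPKM in HKO_PA and 129, 143 and 166 FPKM in HKO_BSA, against 191, 199 and 190.2 FPKM in Flox_PA and 184, 158 and 191 FPKM in Flox_BSA. The groups overlapped in all 4 comparisons. The log2 difference of PA against BSA in HKO was 0.18 and turned to -0.15 without HKO_PA replicate 1. That of HKO against Flox in PA was -0.24, and -0.56 without the same library.

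Bmp6 (ENSMUSG00000039004, chr13:38345107-38500302), the ligand that carries the iron signal to hepatocytes and that in liver comes mainly from sinusoidal endothelium, stood out in a single group. It had 2.71, 3.63 and 3.99 FPKM in HKO_PA and 5.75, 5.48 and 5.45 FPKM in HKO_BSA, against 3.02, 2.80 and 3.66 FPKM in Flox_PA and 3.21, 3.03 and 3.54 FPKM in Flox_BSA. All 3 HKO_BSA libraries lay above the other 9, among which the groups overlapped. The log2 difference was 0.62 for HKO against Flox in BSA and -0.57 for PA against BSA in HKO (SE 0.13 each). The sum of the endothelial markers was lower in HKO_BSA than in Flox_BSA (14.8 to 15.5 against 29.1 to 31.8 FPKM), and the part of those cells in the Bmp6 level was not tested.

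Steap4 (ENSMUSG00000012428, chr5:7960457-7982213), a membrane reductase of iron and copper, was, like Hamp, lower in HKO and higher with PA. It had 2.08, 1.87 and 1.64 FPKM in HKO_PA and 0.756, 0.985 and 0.569 FPKM in HKO_BSA, against 6.87, 10.1 and 9.39 FPKM in Flox_PA and 2.17, 4.03 and 3.01 FPKM in Flox_BSA. No 2 groups overlapped, and HKO_PA lay just below Flox_BSA, where for Hamp it lay above. The log2 difference of PA against BSA was 0.70 in HKO and 1.28 in Flox (SE 0.18 each), and that of HKO against Flox was -1.76 in PA and -1.18 in BSA. The HKO_BSA values rest on 31 to 49 reads. With a pseudocount of 0.1 in place of 1 the differences were -2.17 for HKO against Flox in PA, -1.85 in BSA and 1.19 for PA in HKO. Steap4 passed the filter at a mean of 1 FPKM with a group, HKO_BSA, that lay below it.

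**Figure D3:**
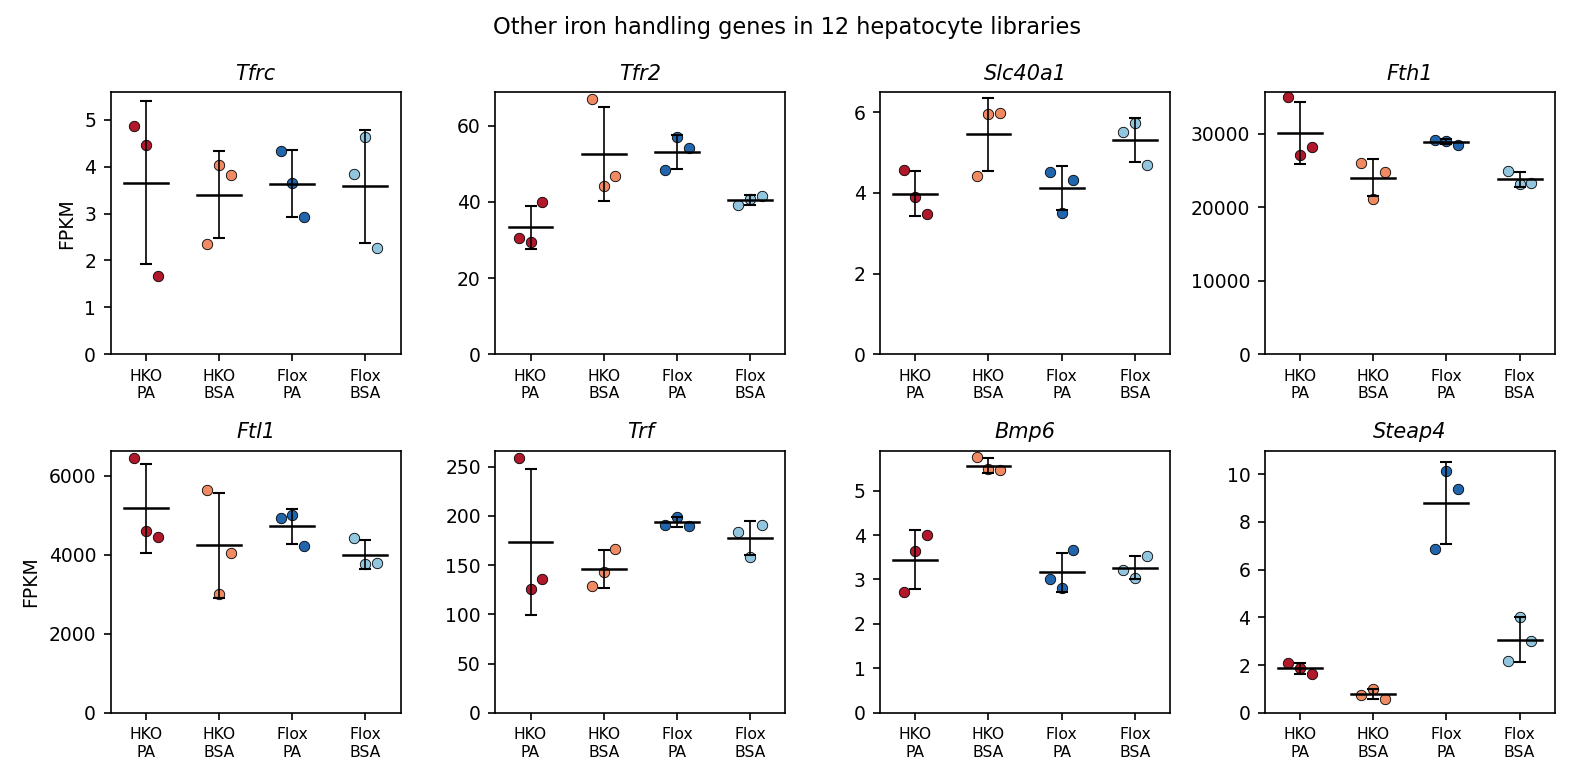
FPKM of the 8 iron handling genes other than the hepcidin pair, on linear axes from 0, with points for the 12 libraries, lines for the means and bars for the SD (n = 3). Tfr2 is lowest in HKO_PA, Bmp6 is highest in HKO_BSA and Steap4 is highest in Flox_PA, while the groups of Tfrc, Ftl1 and Trf overlap.

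Counts of the 10 genes past the threshold (adjusted p under 0.05, Benjamini-Hochberg, limma on log2(FPKM + 1) with all 12 libraries) are set beside the share of all 9743 genes tested, and nothing is read from them, since the genes were chosen on these contrasts. For PA against BSA in HKO 2 were past it, Hamp higher and Bmp6 lower, against 2.94% of all genes. That count was 1 without any single one of HKO_BSA replicates 1, 2 or 3 or HKO_PA replicates 1 or 2, and 4 without HKO_PA replicate 3. Of all genes 776 were past it without HKO_PA replicate 3, against 286 with all 12 libraries. For PA against BSA in Flox 2 were past it, Hamp and Steap4, both higher, against 2.21%. For HKO against Flox in PA 4 were past it, Hamp2 higher and Hamp, Tfr2 and Steap4 lower, against 35.7%. For HKO against Flox in BSA 4 were past it, Hamp2 and Bmp6 higher and Hamp and Steap4 lower, against 20.5%. For the PA difference in HKO minus that in Flox none was past it with limma, where 0.267% of all genes were. There 3 were under an unadjusted p of 0.05 (Tfr2, Bmp6 and Steap4), a cut for which the share of all genes was not counted. None was past the adjusted threshold with limma-voom on reads. Without HKO_PA replicate 3 it was passed by 1 of the 10 genes and by 265 of all genes, against 26 of all genes with all 12 libraries.

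Groups did not overlap for 5 of the 10 genes with PA against BSA in HKO (18.2% of all genes), 5 with PA against BSA in Flox (39.0%), 4 with HKO against Flox in PA (52.0%) and 5 with HKO against Flox in BSA (37.7%). The median log2 difference of the 10 was 0.24 for PA in HKO and 0.18 for PA in Flox, and -0.05 for HKO in PA and 0.02 for HKO in BSA. Over all genes tested the medians were 0.00, 0.01, 0.00 and 0.04 in that order. The comparisons share groups of libraries, so their values are not independent.

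**Figure D4:**
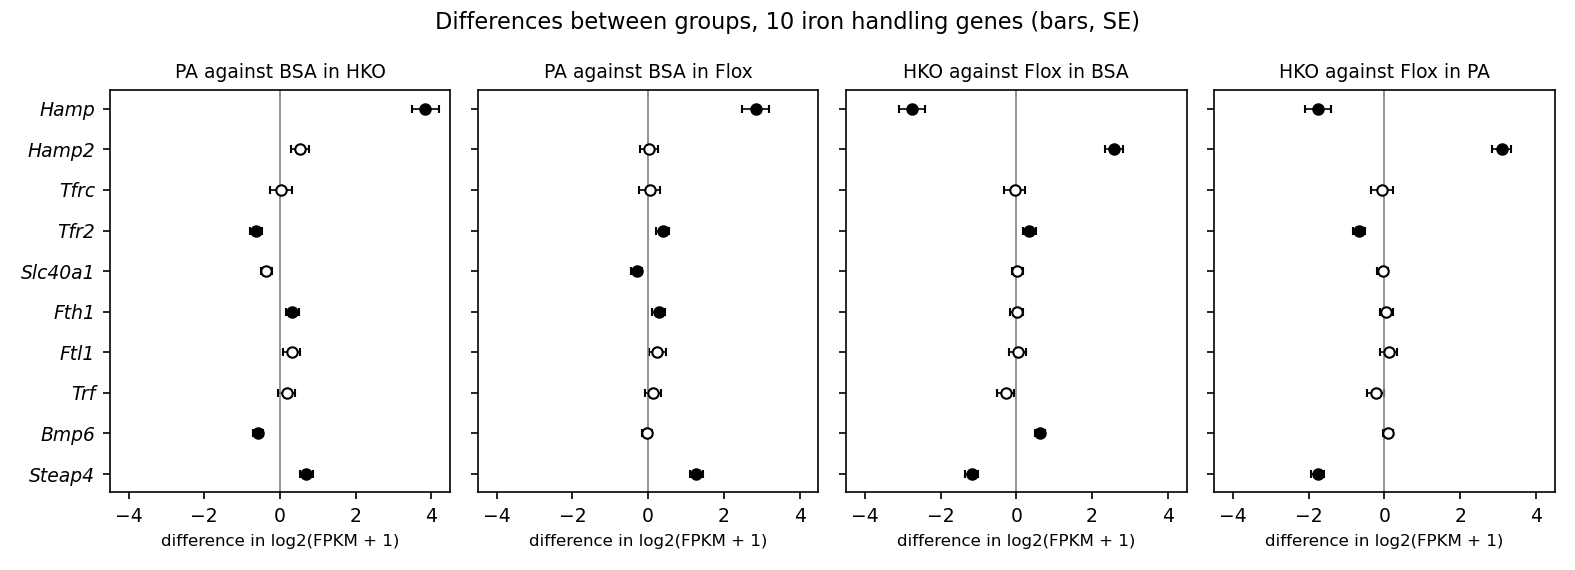
Differences in log2(FPKM + 1) with SE for the 10 genes in 4 comparisons, with filled points where the 2 groups did not overlap and open points where they did. Hamp lies at 3.84 and 2.84 for PA and at -1.75 and -2.75 for HKO, and Hamp2 at 3.09 and 2.59 for HKO.

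The pathway around these genes was followed in 7 lists that hold none of the 10. The lists too were chosen with earlier results of these data known, so their shares and p-values are a description. Of the 94 listed genes that the table holds, 79 were tested with limma over all 9743 genes. With PA against BSA 6 of the 79 rose and none fell in HKO (7.59%, beside 2.94% of all genes). In Flox 3 rose and none fell (3.797%, beside 2.21%). The 6 in HKO became 3 without HKO_BSA replicate 2, when 129 of all genes were called, against 286. With only the 2 HKO groups in the fit 1 was left, Creb3l3, beside 42 of all genes. The 3 in Flox became 1 without Flox_BSA replicate 1, 2 or 3 or Flox_PA replicate 2 or 3. Of all genes 64 to 107 were then called, against 215. In HKO against Flox 10 rose and 17 fell with PA (34.2%), and 9 rose and 11 fell with BSA (25.3%). With limma-voom on reads the BSA split was 5 against 17, beside 528 against 1470 of all genes. None of the 79 passed for the PA difference in HKO minus that in Flox with limma. There 12 were at an unadjusted p under 0.05. For this cut, here and in the lists below, the share of all genes was not counted. Past the threshold were 2 with limma-voom (beside 48 of all genes) and 1 without HKO_PA replicate 3 (beside 265 of all genes). The shares for HKO against Flox are near those of all genes (35.7% with PA and 20.5% with BSA). The lower genes of both treatments include Smad6 and Il1b, whose HKO_BSA means lay below 1 FPKM. Il1b is also among the 6 that rose with PA in HKO. The median log2 difference of the 79 was 0.05 for PA in HKO, 0.06 for PA in Flox, 0.02 for HKO in PA and 0.03 for HKO in BSA.

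**Figure D5:**
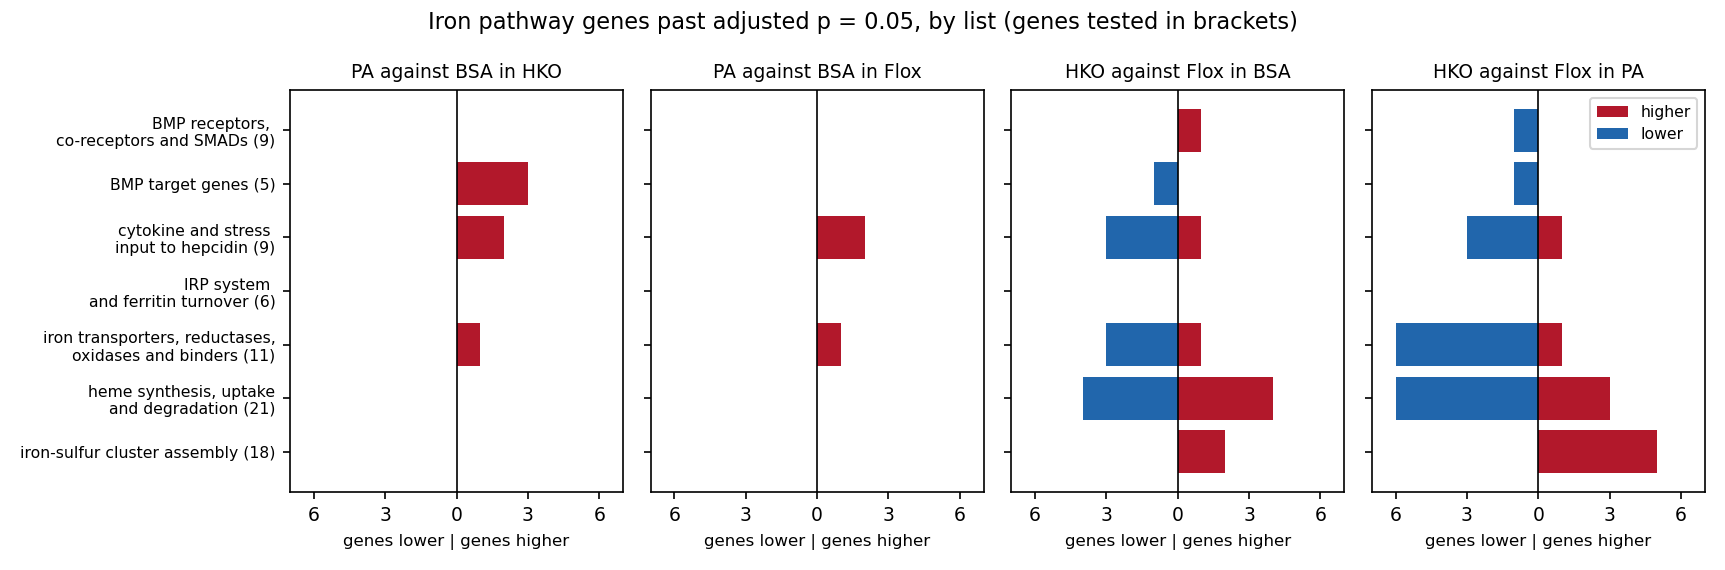
Number of tested genes per iron list past adjusted p = 0.05 in each comparison, with higher genes to the right and lower genes to the left of 0. PA against BSA gives 6 higher genes in HKO and 3 in Flox, and HKO against Flox gives 27 genes in PA and 20 in BSA, among which the 5 and 2 iron-sulfur cluster genes are higher.

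In the BMP branch PA was accompanied by higher ID genes in both genotypes, past the threshold in HKO only. Of 5 tested BMP target genes 3 rose with PA in HKO (60%, beside 2.94% of all genes). None passed in Flox (2.21% of all genes), where 2 were higher at an unadjusted p under 0.05. The difference between the genotypes was not past the threshold for any of the 5. Id1, an inhibitor of helix-loop-helix factors and a direct BMP target, averaged 32.8 ± 8.27 FPKM in HKO_PA and 11.6 ± 5.31 FPKM in HKO_BSA (SD, n = 3 each; log2 difference 1.48, limma adjusted p = 0.00457). Its relatives Id3 (0.96, limma adjusted p = 0.0351) and Id2 (0.93, limma adjusted p = 0.0122) rose as well. Id3 was no longer called without HKO_BSA replicate 2 (0.76) or 3 (0.85) or HKO_PA replicate 1 (0.85) or 2 (1.06), and Id2 without HKO_BSA replicate 2 (0.84). Smad6, an inhibitory SMAD, was 0.898 ± 0.156 FPKM in HKO_PA against 2.78 ± 0.209 FPKM in Flox_PA, and 0.713 ± 0.204 FPKM in HKO_BSA against 2.31 ± 0.302 FPKM in Flox_BSA. Both HKO means lay below 1 FPKM, so Smad6 was among the genes tested only through its Flox values, and its levels are given without a p-value.

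Of 9 receptors, co-receptors and SMADs of the BMP branch none passed with PA in either genotype in limma or limma-voom (2 under an unadjusted p of 0.05 in HKO and 1 in Flox). Tmprss6, a hepatocyte protease that restrains hepcidin, rose in HKO with BSA, 103 ± 32.3 FPKM in HKO_BSA against 59.2 ± 2.69 FPKM in Flox_BSA (log2 difference 0.74, limma adjusted p = 0.00938). Without HKO_BSA replicate 1 the difference was 0.50. Smad1, a receptor-activated SMAD, fell in HKO with PA (log2 difference -0.40, limma adjusted p = 0.0410), a call lost without any single one of HKO_PA replicates 1 (-0.33) and 2 (-0.39) and Flox_PA replicates 2 (-0.39) and 3 (-0.30).

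The cytokine and stress inputs to hepcidin moved both ways in HKO. Creb3l3, a hepatocyte transcription factor of the endoplasmic reticulum membrane that can switch on Hamp, rose in all 4 comparisons. It averaged 63.3 ± 6.04 FPKM in HKO_PA and 19.2 ± 2.95 FPKM in HKO_BSA, against 29.1 ± 7.04 FPKM in Flox_PA and 9.38 ± 0.111 FPKM in Flox_BSA. Its log2 differences were 1.67 for PA in HKO, 1.51 for PA in Flox, 1.11 for HKO in PA and 0.95 for HKO in BSA, with limma adjusted p-values of 8.97e-05, 0.000328, 0.000185 and 0.000756.

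Socs3, the feedback inhibitor that STAT3 induces, averaged 2.56 ± 0.582 FPKM in HKO_PA and 1.65 ± 0.737 FPKM in HKO_BSA, against 21.9 ± 2.17 FPKM in Flox_PA and 11.6 ± 0.291 FPKM in Flox_BSA. It fell in HKO with PA (log2 difference -2.70, limma adjusted p = 5.20e-08) and with BSA (-2.29, limma adjusted p = 2.61e-07). With PA it rose in Flox (0.85, limma adjusted p = 0.0283), a call kept without Flox_PA replicate 1 and lost without any other single library of the 2 Flox groups (0.79 to 0.87). Il1b, an inflammatory cytokine mainly of macrophages, fell in HKO with PA (log2 difference -2.25, limma adjusted p = 3.05e-07) and was lower with BSA (-3.16). Within HKO it was higher with PA, 1.96 ± 0.839 FPKM in HKO_PA against 0.537 ± 0.103 FPKM in HKO_BSA (log2 difference 0.91). Its call there was lost without HKO_BSA replicate 2 (0.86). All HKO_BSA values of Il1b lay below 1 FPKM, so it was among the genes tested through other groups. Its comparisons with HKO_BSA are therefore given without a p-value. Of the 9 genes tested in this list 1 rose and 3 fell in HKO with either treatment (44.4%, beside 35.7% of all genes with PA and 20.5% with BSA). Kupffer marker sums fell in the same libraries as Socs3 and Il1b, and their part was not tested.

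None of 6 genes of the iron regulatory protein system and ferritin turnover passed in any comparison with limma. Of all genes 2.94% passed for PA in HKO, 2.21% for PA in Flox, 35.7% for HKO in PA and 20.5% for HKO in BSA. At most 1 of the 6 was under an unadjusted p of 0.05 in each comparison. With limma-voom 2 of the 6 passed for HKO against Flox in PA, where 3672 of all 9743 genes did. With limma-voom none of the 6 passed in the other comparisons.

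Among 11 iron transporters, reductases, oxidases and binders, 1 rose and 6 fell in HKO with PA (63.6%, beside 35.7% of all genes). With BSA 1 rose and 3 fell (36.4%, beside 20.5%). Lcn2, which binds iron-carrying siderophores and belongs to the acute phase response, averaged 221 ± 39.0 FPKM in HKO_PA and 103 ± 14.6 FPKM in HKO_BSA, against 1715 ± 199 FPKM in Flox_PA and 1630 ± 134 FPKM in Flox_BSA. It fell in HKO in both treatments (log2 differences -2.96 and -3.97, limma adjusted p = 5.90e-09 and 2.84e-10) and rose with PA in HKO (1.08, limma adjusted p = 0.00284). Slc11a1, a metal transporter of macrophage phagosomes, was 1.97 ± 0.0532 FPKM in HKO_PA against 41.0 ± 4.80 FPKM in Flox_PA and 1.51 ± 0.428 FPKM in HKO_BSA against 31.8 ± 1.57 FPKM in Flox_BSA. It fell in both treatments (log2 differences -3.81 and -3.72, limma adjusted p = 1.91e-10 and 1.78e-10), together with the Kupffer markers, and the part of those cells was not tested. Cp, the ferroxidase ceruloplasmin, fell in HKO with BSA (-0.97, limma adjusted p = 0.00693) and was also among the genes that fell with PA. Steap1, a relative of Steap4, differed between genotypes in the opposite direction and rose in HKO with either treatment. With PA it was 14.1 ± 1.49 FPKM in HKO_PA against 5.63 ± 0.0804 FPKM in Flox_PA (1.18, limma adjusted p = 0.000108). Steap1 did not pass for PA against BSA in either genotype. Slc11a2, which imports ferrous iron, rose with PA in Flox (0.79, limma adjusted p = 0.0386), a call lost without any single library of the 2 Flox groups (0.72 to 0.88).

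Of 21 genes of heme synthesis, uptake and degradation none passed with PA in either genotype with limma or limma-voom (4 under an unadjusted p of 0.05 in HKO and 5 in Flox). In HKO against Flox 3 rose and 6 fell with PA (42.9%, beside 35.7% of all genes), and 4 rose and 4 fell with BSA (38.1%, beside 20.5%). Lrp1, a receptor that takes up heme bound to hemopexin among many ligands, was 2.83 ± 1.68 FPKM in HKO_PA against 13.2 ± 1.42 FPKM in Flox_PA and 3.45 ± 1.26 FPKM in HKO_BSA against 10.7 ± 1.57 FPKM in Flox_BSA. It fell in both (limma adjusted p = 0.000215 and 0.00365). Alas1, the rate-limiting enzyme of heme synthesis in liver, fell in HKO with PA (log2 difference -0.84, limma adjusted p = 0.00123). Urod, a later enzyme of that path, rose in HKO with BSA (0.77, limma adjusted p = 0.00300) and was also among the genes that rose with PA. Blvrb, a biliverdin reductase, fell in HKO with BSA (-0.75, limma adjusted p = 0.0165), a call lost without Flox_BSA replicate 1 (-0.72) or 2 (-0.75) or HKO_BSA replicate 2 (-0.54). Abcg2, a porphyrin exporter, rose in HKO with PA (0.82, limma adjusted p = 0.0310), a call lost without HKO_PA replicate 1 (0.58) or any single Flox_PA library (0.79 to 0.84).

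Of 18 iron-sulfur cluster assembly genes tested in HKO against Flox, 5 rose and none fell with PA (27.8%, beside 35.7% of all genes), and 2 rose and none fell with BSA (11.1%, beside 20.5%). The other 13 with PA and 16 with BSA did not pass, and none passed for PA against BSA (none under an unadjusted p of 0.05 in HKO and 1 in Flox, and none with limma-voom). Bola3, which hands clusters to lipoate-making enzymes, was 16.4 ± 2.72 FPKM in HKO_PA against 8.57 ± 0.286 FPKM in Flox_PA and 13.0 ± 2.61 FPKM in HKO_BSA against 7.98 ± 0.274 FPKM in Flox_BSA (limma adjusted p = 0.000904 and 0.00996). Cisd1, an iron-sulfur protein of the outer mitochondrial membrane, rose by 0.77 on the log2 scale with PA (limma adjusted p = 0.000949) and by 0.48 with BSA (limma adjusted p = 0.0244). Its call with BSA was lost without any single Flox_BSA library or HKO_BSA replicate 1 or 3 (0.38 to 0.50). That call was also lost with limma-voom on reads (0.31) and with only the groups compared in the fit. Isca1, a late-acting assembly protein, rose with PA (0.62, limma adjusted p = 0.00582).

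Among 8853 genes the pattern most like that of Hamp over the 12 libraries, by Pearson correlation of log2(FPKM + 1), was that of Cxcl1 (r = 0.976), a neutrophil-attracting chemokine. Selenbp2 (0.965), Chaf1b (0.954), Wdyhv1 (0.952) and Cxcl2 (0.947) followed. Cxcl1 averaged 74.2 FPKM in HKO_PA and 18.5 FPKM in HKO_BSA, against 161 FPKM in Flox_PA and 73.0 FPKM in Flox_BSA. For Slc40a1 the closest were Ppp2r5e (0.935), Ppp3ca (0.922), Arl14ep (0.913), Qk (0.912) and Nup155 (0.904). These values are a description: the 12 libraries fall into 4 groups, and all genes share each library's depth and scaling.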

How the data were processed

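The deposited table gives FPKM per gene, computed by the authors with the gene lengths it lists. Per the submitters' processing notes the builds are GRCm38 and mm10; no source used here names the aligner or counter. By the labels' protocols, RNA was isolated with an RNeasy kit and libraries were made with an NEBNext Ultra kit. FPKM times length gave whole reads (within 0.01) for 100% of values of up to 1000 reads.

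The members and lists were chosen with earlier results of these data known. One limma fit (limma 3.58.1, R 4.3.3, trend, 4 group means) on log2(FPKM + 1) covered 9743 genes whose mean reached 1 FPKM. Two-sided p-values were adjusted by Benjamini-Hochberg in each of 5 comparisons and called under 0.05. The script was tested on simulated data. Named pathway genes are, per list and comparison, up to 3 past the threshold with the largest difference. Likeness lists hold the 5 protein-coding genes of highest correlation. Alternatives covered the pseudocount, the filter, scaling, limma-voom, the groups fitted, replicate blocks and libraries left out. Sequences come from RefSeq (GRCm38.p6) and GENCODE M21. Protein sequences were not used here.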

Additional observations from a re-analysis of the deposited data

Results flagged for a closer look

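Tfr2 was singled out because PA moved it in opposite directions in the 2 genotypes: all HKO_PA libraries lay below all HKO_BSA libraries, and all Flox_PA libraries lay above all Flox_BSA libraries. For the same reason HKO lay below Flox with PA and above it with BSA for every library. The log2 PA difference in HKO minus that in Flox was -1.01 (SE 0.23), and -0.78 without both HKO libraries numbered 1. In the fit of all genes it was under an unadjusted p of 0.05 and did not pass the adjusted threshold. No p-value is given, because the gene was chosen on these values.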

How the results depend on the processing

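For PA against BSA in HKO the 6 iron pathway genes called became 1 with only the groups compared in the fit and 12 without both HKO libraries numbered 1, and 3 to 7 with 1 library left out. For PA against BSA in Flox the 3 became 1 with a pseudocount of 0.1 and with limma-voom, 20 with only the groups compared, 18 without both HKO libraries numbered 1, and 1 to 2 with 1 library left out. For HKO against Flox in BSA the 20 became 36 without both HKO libraries numbered 1 and 15 to 26 with 1 library left out, and in PA the 27 became 20 to 28. For the difference of the PA differences the 0 became 1 with median log ratio scaling, with quantile normalization and without both HKO libraries numbered 1, 2 with limma-voom, and 0 to 1 with 1 library left out. The number called among all 9743 genes shifted as well. For PA in HKO it went from 286 to 42 with only the groups compared and to 679 without both HKO libraries numbered 1. For PA in Flox it went from 215 to 1543 and 1356 in the same settings. For HKO against Flox in BSA it went from 1994 to 3579 without both HKO libraries numbered 1. The cause of these shifts was not tested. With the replicate number as a block the counts were 7, 2, 28, 22 and 0 for PA in HKO, PA in Flox, HKO in PA, HKO in BSA and the difference of differences, and with genotype and number as the block 5, 2 and 0 for the PA comparisons. Deviations of same-numbered libraries correlated at -0.48 to 0.36 over the 4 comparisons. Some libraries correlated best with their own number and others did not. Deviations from means of 3 cannot decide whether same-numbered libraries share a mouse or culture. With limma-voom the median log2 difference of all genes was -0.16 for HKO against Flox in PA and -0.13 in BSA, against 0.00 and 0.04 with limma on FPKM.

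Of 546 alternatives for 36 results on named pathway genes 486 kept the call and direction and 60 lost the call, and 25 results kept it throughout. Of 810 alternatives for 50 differences of the 10 genes 781 moved by less than 1 SD. All alternatives for the log2 ratio of Hamp2 to Hamp moved it by less than 1 SD, with a pseudocount of 1 in the ratio chosen after seeing the data. Among the 10 genes, the Hamp values of 16 to 58 reads in HKO_BSA and the Steap4 values of 31 to 49 reads there carry the widest counting error.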
